A study of Mus musculus with 4 samples.

Results

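WNT ligands, their receptors, the secreted inhibitors and 3 intracellular components of the pathway were followed in whole fetal brains of C57BL/6J mice, an inbred strain, at embryonic day 16. The members were taken by name from the platform annotation, as all probe sets with exactly 1 symbol of the Wnt, Fzd, Sfrp, Dkk or Rspo families or of Lrp5, Lrp6, Axin1, Axin2, Lef1 and Wif1. This gave 48 probe sets for 47 genes of the 19938 genes measured. Wnt4 alone had several probe sets, and each gene was represented by its brightest set. The members comprise 19 WNT ligands, 12 receptors, 9 secreted inhibitors, 4 R-spondins and 3 intracellular proteins. Membership followed from the name alone, but the pathway was chosen with earlier results of these data known.

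Dams received ethanol in saline at 2.5 g per kg, or saline of equal volume, by 2 injections on gestational days 14 and 16, and fetal brains were collected on day 16. RNA of 3 mice was pooled, to lessen litter effects, for each Affymetrix whole-transcript array, giving 2 ethanol and 2 control pools from 12 mice. The labels call the sex of the fetuses unknown and do not tie pools to litters. The p-values therefore describe only how these 4 pools scatter, and in limma each gene's spread is moderated by that of all genes. The comparison asks how ethanol given on these days bears on the brain's WNT transcripts.

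WNT proteins are secreted lipid-modified glycoproteins that bind a Frizzled receptor together with the coreceptor LRP5 or LRP6. Binding inhibits a cytoplasmic complex built on AXIN, so that beta-catenin accumulates and activates genes through TCF and LEF factors, while other branches act on cell polarity and movement. Secreted frizzled-related proteins and WIF1 bind WNT proteins outside the cell, Dickkopf proteins act on LRP5 and LRP6, and R-spondins amplify the signal by keeping receptors on the surface. In the fetal brain the pathway patterns the midbrain and the hippocampus, sets the pace of progenitor division, and drives the growth of brain vessels.

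Dkk1 and Axin2 are members and also known targets of beta-catenin signalling, so their start regions are shown. Capitals mark the TCF/LEF core, searched on both strands as CTTTGAA or CTTTGAT, or CTTTGTA or CTTTGTT, in the 250 bases before a start site (RefSeq, GRCm38.p6). The Dkk1 window is chr19:30549497-30549746 on the minus strand and the Axin2 window is chr11:108920099-108920348 on the plus strand.
Dkk1: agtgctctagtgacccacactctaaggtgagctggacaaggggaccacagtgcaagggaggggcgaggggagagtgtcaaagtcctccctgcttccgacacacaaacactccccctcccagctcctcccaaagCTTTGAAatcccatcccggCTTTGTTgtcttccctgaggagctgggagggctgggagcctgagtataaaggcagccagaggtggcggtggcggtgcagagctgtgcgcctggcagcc
Axin2: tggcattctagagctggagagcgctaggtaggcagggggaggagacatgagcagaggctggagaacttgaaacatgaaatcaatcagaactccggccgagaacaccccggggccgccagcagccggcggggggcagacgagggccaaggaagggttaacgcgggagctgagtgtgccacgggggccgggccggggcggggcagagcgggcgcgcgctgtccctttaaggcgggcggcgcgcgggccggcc
Dkk1 held 2 matches that do not overlap, a CTTTGAA that begins 117 bases and a CTTTGTT that begins 98 bases before the start site. The Axin2 window held 0 matches, which says only that these letters are not in this stretch. Lef1, a further target, also held 0 matches in its window at chr3:131110047-131110296 on the plus strand, but a TACAAAG in another window. Of the 47 members, 30 were in the promoter table with 36 windows, of which 5 (13.9%) held a match, against 14.8% of all 32851 windows of this length. The other 4 were windows of Fzd7, Lef1, Wnt5b and Wnt11. A match is a description of the sequence.

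All values are deposited log2 signals of a probe set, and 4 values in a row always stand for ethanol 1, ethanol 2, control 1 and control 2. Array medians lay between 8.01 and 8.04, and the lower quartile of all probe sets was 6.55 on ethanol 1 but 6.45 to 6.47 elsewhere. Levels of different probe sets are not comparable, so a member's level is set only against its own level on other arrays and against the quartiles of its array. The labelled tissue was borne out by 8 of 8 neuronal markers, whose mean stood at 12.49, 12.51, 12.45 and 12.54. The pools also differed within a group. The mean of 15 skeletal muscle markers was 7.35, 8.47, 9.89 and 7.31, that of 15 markers of meninges and pericytes 8.84, 9.14, 9.58 and 8.89, and that of 7 markers of dividing cells 9.48, 9.74, 10.04 and 9.60. Control 1 was the highest array for 15 of 15, 14 of 15 and 7 of 7 of these genes. No muscle, meningeal or dividing-cell marker lay below the lower quartile on all arrays. Control 1, and for muscle genes also ethanol 2, therefore stand apart. In bulk tissue, fewer cells of a type and less RNA per cell cannot be told apart.

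None of the 47 members differed between ethanol and control by limma after Benjamini-Hochberg adjustment over all genes (smallest adjusted p = 0.980), where 0.0% of all genes were called. At an unadjusted p under 0.05 there was 1 member (2.13%), Axin1, against 2.94% of all genes, and an ordinary linear model gave 0 members at either threshold. A fold of at least 1.2 together with that p was reached by 0 members, against 1.02% of all genes (0.481% higher and 0.537% lower in ethanol). Differences ran from -0.25 for Sfrp2 to 0.18 for Axin2 on the log2 scale, with a median of 0.018 beside 0.0088 over all genes. In 14 members (29.8%) the ethanol arrays lay wholly above or wholly below the control arrays, 10 higher and 4 lower, against 31.4% of all genes (17.4% higher and 14.0% lower). This share is near the background. The difference was above 0 in 28 members (54.2% of all genes) and below 0 in 19 (45.8%). It exceeded both pool differences in 8 members (17.0%), against 19.0% of all genes. The median size of the difference over members was 0.055, that of the difference between the control pools 0.104 and between the ethanol pools 0.105. Over all genes these were 0.061, 0.079 and 0.091, and a difference between single pools scatters more than one between means of 2. A single gene cannot reach p = 0.05 in an exact two-sided permutation test of 2 against 2 arrays, where the smallest p is 0.333.

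**Figure D1:**
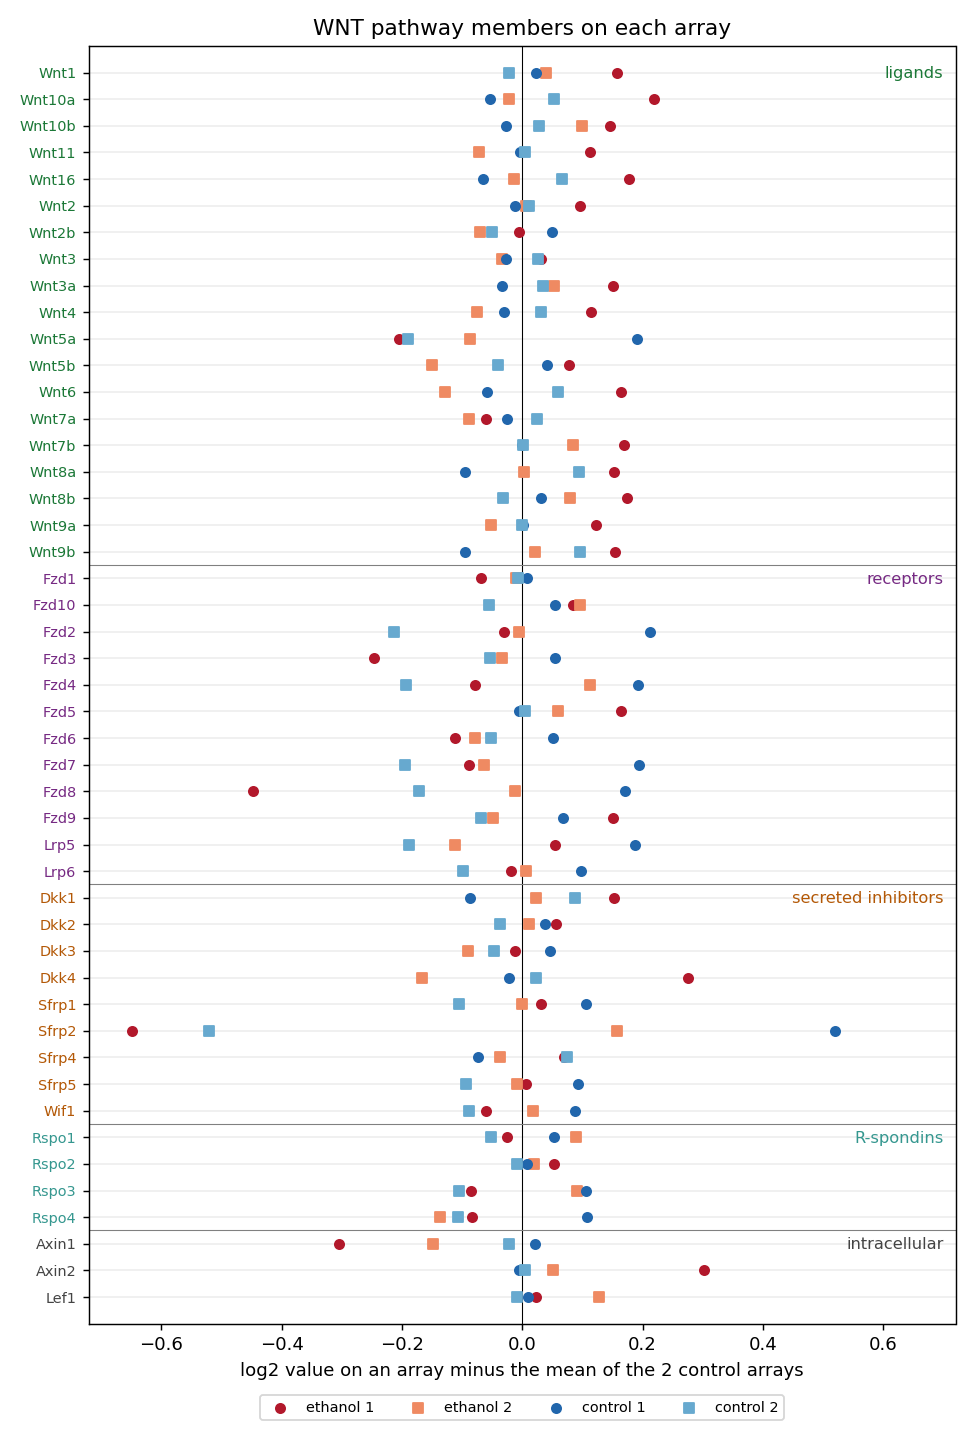
Each row is a member gene and each point its log2 value on an array minus the mean of both control arrays (horizontal axis), with circles for pool 1 and squares for pool 2 of ethanol (red) and control (blue). Most ligands have ethanol 1 as the rightmost point, most receptors have control 1 there, and Sfrp2 has the widest scatter.

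Among the 19 ligands, 14 lay above 0 (73.7%, against 54.2% of all genes) and 5 below, with a median log2 difference of 0.051. The signal of 8 ligands (Wnt1, Wnt2, Wnt3a, Wnt6, Wnt8a, Wnt8b, Wnt10b and Wnt11) was below the lower quartile on all 4 arrays, at the dim end where probe sets hold little signal. With Rspo4 that makes 9 members, or 19.1%, against 23.4% of all genes. All 8 dim ligands lay above 0, as did 75.2% of the genes that were equally dim. Of the 11 brighter ligands 6 lay above 0 (54.5%), against 47.8% of the brighter genes. The array most often highest was ethanol 1, in 16 of 19 ligands (84.2%), against 40.2% of all genes. These were all 8 dim ligands, against 68.1% of the 4664 genes that were equally dim, and 8 of the 11 brighter ones (72.7%), against 31.7% of the 15274 brighter genes. After a second quantile normalization, which sets the dim ends of the arrays equal, ethanol 1 was highest in 9 of 19 ligands (47.4%, and 54.5% of the brighter ones), against 31.7% of all genes. Of the ligands 10 then lay above 0, as did 10137 of the 19938 genes, and the ligand median was 0.030. Without ethanol 1 the ligand median was -0.022, and without ethanol 2 it was 0.15.

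Wnt7a and Wnt7b, close paralogs made by neural cells that act on the growing brain vessels, had opposite signs. Wnt7b stood at 8.31, 8.22, 8.14 and 8.14, and both ethanol arrays lay above both control arrays. The difference was 0.13 ± 0.070 (log2, SE, 2 arrays per group; unadjusted p = 0.121 in limma). Wnt7a stood at 8.19, 8.17, 8.23 and 8.28, and here both ethanol arrays lay below both control arrays, with a difference of -0.074. The pair was set side by side after its values were seen, and the difference between the paralogs was not tested. Neither Wnt7a nor Wnt7b passed the adjusted test, and Wnt7b was 0.15 after a second quantile normalization. With array medians set equal Wnt7b was 0.14, but 0 ligands then had groups apart and lower in ethanol, so the separation of Wnt7a was lost. The 10 endothelial markers had a mean of 9.17, 9.20, 9.37 and 9.24.

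Several ligands of the cortical hem and the roof plate, signalling centres at the dorsal midline, were dim. Wnt8b, a ligand of the medial pallium, stood at 6.47, 6.38, 6.33 and 6.27, a difference of 0.13 ± 0.073 (unadjusted p = 0.136 in limma) with no overlap. Wnt3a, needed for the hippocampus, stood at 6.29, 6.20, 6.11 and 6.18. Wnt1, which maintains the midbrain-hindbrain boundary, stood at 5.63, 5.52, 5.50 and 5.45. In Wnt3a and Wnt1 too the ethanol arrays were the upper ones, by 0.10 and 0.098, and all 3 lay below the lower quartile on all arrays. Of the 4664 genes that were equally dim, 23.8% had groups apart and higher in ethanol, and 4.61% apart and lower. Wnt8b was 0.072 after a second quantile normalization. Wnt2b, another hem ligand, stood at 6.43, 6.36, 6.48 and 6.38, with overlapping groups and a difference of -0.038. Wnt5a, also counted with these centres, was brighter and lay below 0, at -0.15.

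Wnt5a, a ligand of the polarity branch, had the largest difference among ligands and its values were well above the lower quartile. It stood at 8.98, 9.10, 9.38 and 9.0003. Control 1 was the only high array, and the other 3 lay within a narrow band. The difference was -0.15 ± 0.13 (unadjusted p = 0.322 in limma), turned to 0.044 without control 1 and was -0.34 without control 2. Wnt5b, its paralog, stood at 7.33, 7.11, 7.30 and 7.21 with overlapping groups and a difference of -0.036.

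Of the other ligands, Wnt4, known from kidney and gonad development, stood at 8.89, 8.70, 8.75 and 8.81, a difference of 0.020. Its second probe set, dimmer, stood at 6.16, 6.22, 6.35 and 6.41, with both ethanol arrays below the controls and a difference of -0.19. The probe sets of Wnt4 thus disagree. Wnt3 stood at 6.80, 6.74, 6.74 and 6.80 and Wnt9b at 7.25, 7.12, 7.004 and 7.19, Wnt9a at 6.98, 6.80, 6.86 and 6.85, and all 3 overlapped between groups.

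The ligands Wnt6 and Wnt10a, neighbours on chromosome 1, stood at 6.50, 6.21, 6.28 and 6.40 and at 7.55, 7.31, 7.28 and 7.39. Wnt10b and Wnt1 are neighbours on chromosome 15, and Wnt10b stood at 6.32, 6.28, 6.15 and 6.20, with ethanol above control by 0.12 and no overlap. The neighbouring pairs Wnt3a with Wnt9a and Wnt9b with Wnt3 lie on chromosome 11. Differences within these 4 neighbouring pairs were 0.018 and 0.098, 0.12 and 0.098, 0.10 and 0.035, and 0.088 and -0.0016.

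The last 4 ligands all had overlapping groups. Wnt2, a ligand of lung development, stood at 6.48, 6.39, 6.37 and 6.39, and Wnt16, known from bone, at 6.61, 6.42, 6.37 and 6.50. Wnt8a, active in the early embryo, stood at 6.24, 6.09, 5.997 and 6.19, and Wnt11, a polarity ligand, at 6.10, 5.92, 5.98 and 5.99. Their differences ran from 0.020 for Wnt11 to 0.081 for Wnt16, and ethanol 1 was the highest array in each.

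**Figure D2:**
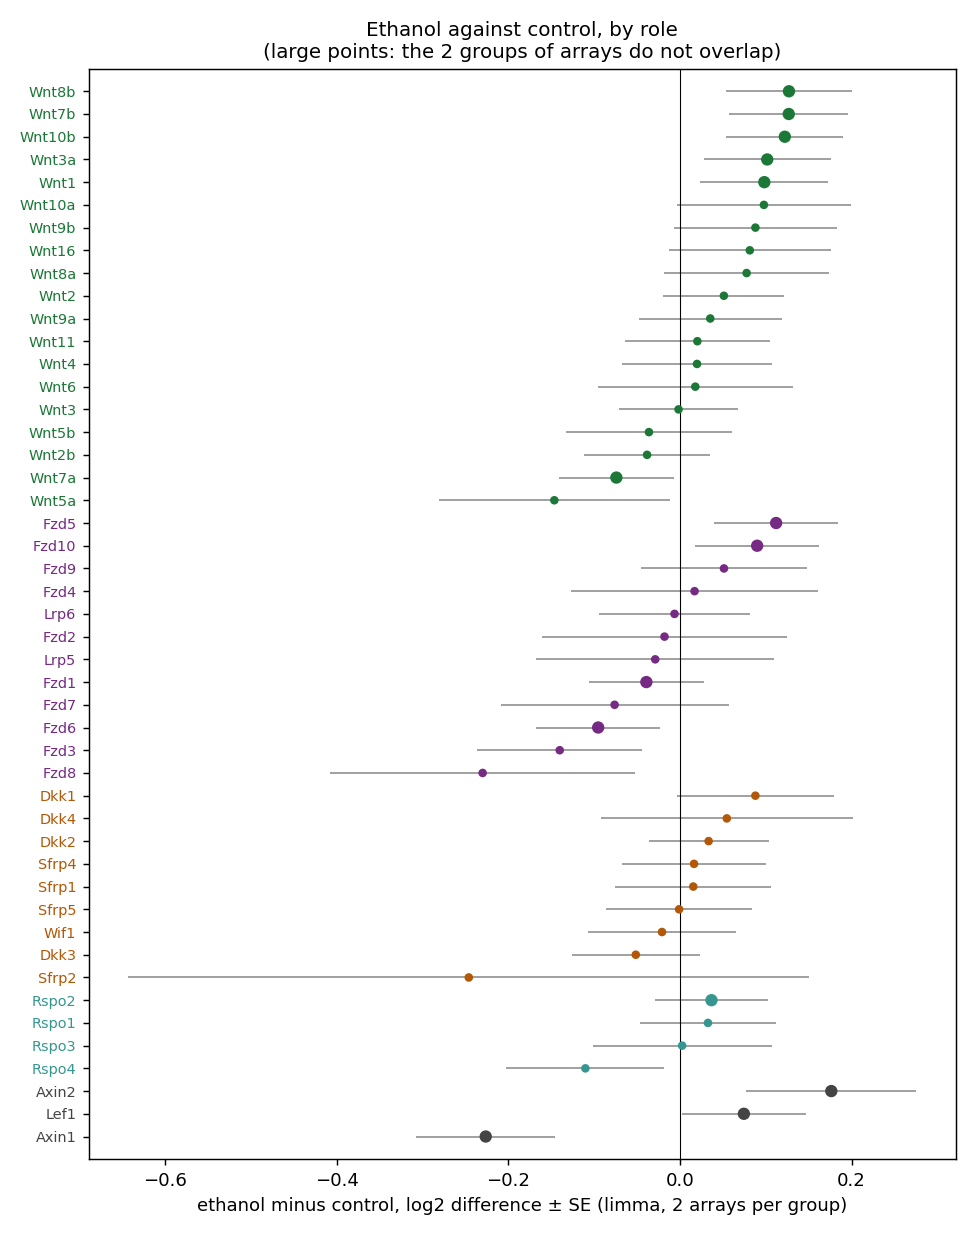
Log2 difference between ethanol and control arrays for each member (points) with its standard error from limma (bars), sorted within roles and coloured by role. Large points mark the 14 members whose groups do not overlap, and the widest bar belongs to Sfrp2.

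The 12 receptors mostly stood highest on control 1. Control 1 exceeded control 2 in 11 of 12, against 46.5% of all genes, and control 1 was the highest array in 9 of 12, against 26.8%. A difference of at least 0.3 between the pools of a group was found in 5 receptors (41.7%), against 10.0% of all genes and 17.0% of members. The median difference between ethanol and control was -0.023, with 4 receptors above 0 and 8 below. It was 0.11 without control 1 and -0.16 without control 2, so its direction turned with the control pool left out.

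Fzd1, Fzd2 and Fzd7 form a closely related group of receptors. Fzd1 stood at 9.32, 9.38, 9.40 and 9.38. Fzd2 stood at 9.70, 9.72, 9.94 and 9.51 and Fzd7 at 8.86, 8.88, 9.14 and 8.75. Fzd2 and Fzd7 were high on control 1 and low on control 2, by 0.43 and 0.39, with both ethanol arrays in between. Their differences between ethanol and control were -0.018 ± 0.14 and -0.076 ± 0.13 (unadjusted p = 0.904 and 0.589), and 0.19 and 0.12 without control 1. In Fzd1 the ethanol arrays were the lower ones, by a difference of only -0.039.

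Fzd5 and Fzd8, another pair of close paralogs, had opposite signs. Fzd8 stood at 8.14, 8.58, 8.76 and 8.42, low on ethanol 1 and high on control 1, with overlapping groups. Its difference of -0.23 ± 0.18 (unadjusted p = 0.245 in limma) lay between -0.45 and -0.011 when an array was left out. The highest of these values is that without ethanol 1. Fzd5 stood at 6.64, 6.54, 6.47 and 6.48, with both ethanol arrays above both control arrays and a difference of 0.11 ± 0.072 (unadjusted p = 0.173).

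Fzd3, needed for the growth of major axon tracts, stood at 10.94, 11.15, 11.24 and 11.13, and Fzd6, a polarity receptor and its paralog, at 8.59, 8.62, 8.75 and 8.65. Both lay below 0, at -0.14 ± 0.096 (unadjusted p = 0.197) and -0.095. Ethanol 1 was the lowest array in both, and Fzd3 was -0.034 without ethanol 1, -0.086 without control 1 and -0.25 without ethanol 2. The groups overlapped in Fzd3, where ethanol 2 lay above control 2, and did not overlap in Fzd6.

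Fzd4, the receptor for Norrin on vessels, stood at 6.97, 7.17, 7.25 and 6.86, with a control pool difference of 0.39 and a difference between ethanol and control of 0.017. Its relatives Fzd9 and Fzd10 stood at 8.73, 8.53, 8.65 and 8.51 and 7.57, 7.58, 7.54 and 7.43. The groups were apart in Fzd10, higher in ethanol by 0.090, and overlapped in Fzd9. The coreceptors Lrp5 and Lrp6 stood at 8.75, 8.58, 8.88 and 8.51 and 10.41, 10.44, 10.53 and 10.33. Both were highest on control 1 and lowest on control 2, with differences of -0.029 and -0.0063. Without control 1 these were 0.16 and 0.092, and Fzd4 was 0.21, while without control 2 Lrp5, Lrp6 and Fzd4 were -0.22, -0.10 and -0.18.

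**Figure D3:**
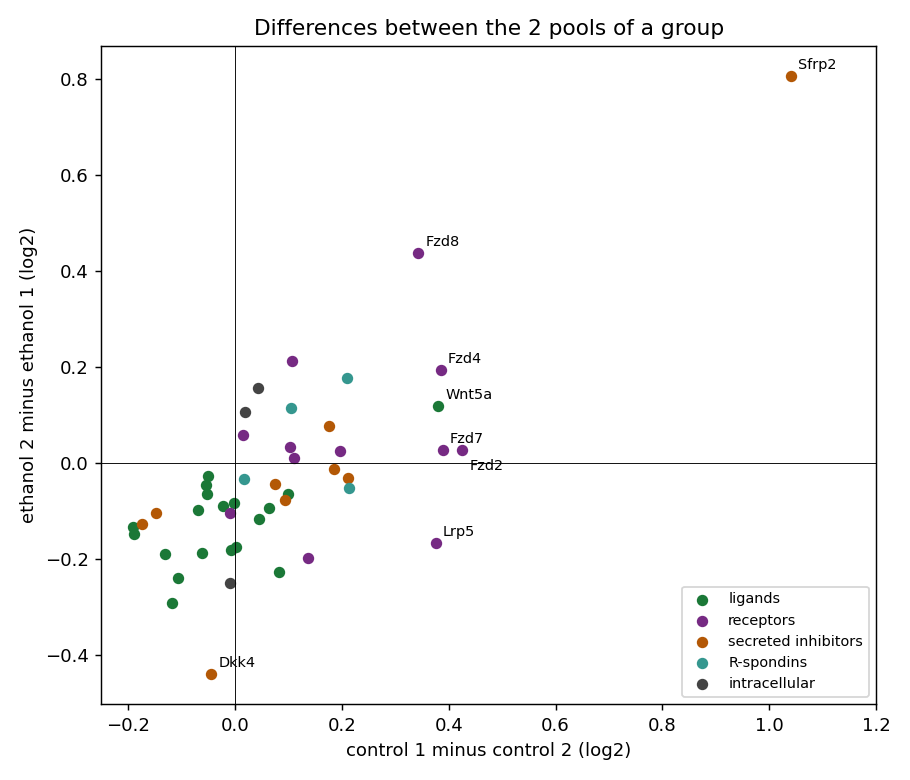
Difference between the control pools (control 1 minus control 2, horizontal) and between the ethanol pools (ethanol 2 minus ethanol 1, vertical), in log2, for each member, coloured by role. Sfrp2 lies at 1.04 and 0.81, far from the other members, Fzd8 at 0.34 and 0.44, and most ligands lie below 0 on the vertical axis.

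Of the 9 secreted inhibitors, 5 lay above 0 and 4 below (median 0.016), and in 0 of 9 were the groups apart, against 31.4% of all genes. Sfrp2, a secreted frizzled-related protein made by neural progenitors and by mesenchyme, varied more than any other member. It stood at 9.94, 10.74, 11.10 and 10.06. Control 1 and ethanol 2 were the high arrays and ethanol 1 and control 2 the low ones, so each group held a high and a low pool. Control 1 exceeded control 2 by 1.04 and ethanol 2 exceeded ethanol 1 by 0.81, while the difference between ethanol and control was -0.25 ± 0.40 (unadjusted p = 0.559 in limma). That difference was 0.27 without control 1, 0.16 without ethanol 1, -0.77 without control 2 and -0.65 without ethanol 2. Between ethanol 1 and control 2, the pools low in muscle genes, it was -0.13.

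Control 1 and ethanol 2 were also the high pools of their groups in the lists of muscle, meninges with pericytes, and dividing cells. Control 1 exceeded control 2 by a median of 3.07, 0.47 and 0.46 in these 3 lists, and ethanol 2 exceeded ethanol 1 by 0.82, 0.12 and 0.28. Cartilage and bone markers (10 of 12 measured) had a mean of 6.95, 7.67, 7.58 and 6.94, high on ethanol 2 and control 1. Matn3, Comp and Col10a1 of that list were below the lower quartile on all arrays. Erythroid markers (4 of 7 measured) had a mean of 7.72, 8.26, 8.46 and 7.57, with control 1 above control 2 and ethanol 2 above ethanol 1 in 4 of 4 genes, and Hbb-bh1 was below the lower quartile on all arrays. Choroid plexus and endothelial means were highest on control 1 as well. The part of these tissues in the values of Sfrp2 and the receptors was not tested. Neuronal and radial glia markers differed by a median of -0.092 and 0.099 between control 1 and control 2.

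**Figure D4:**
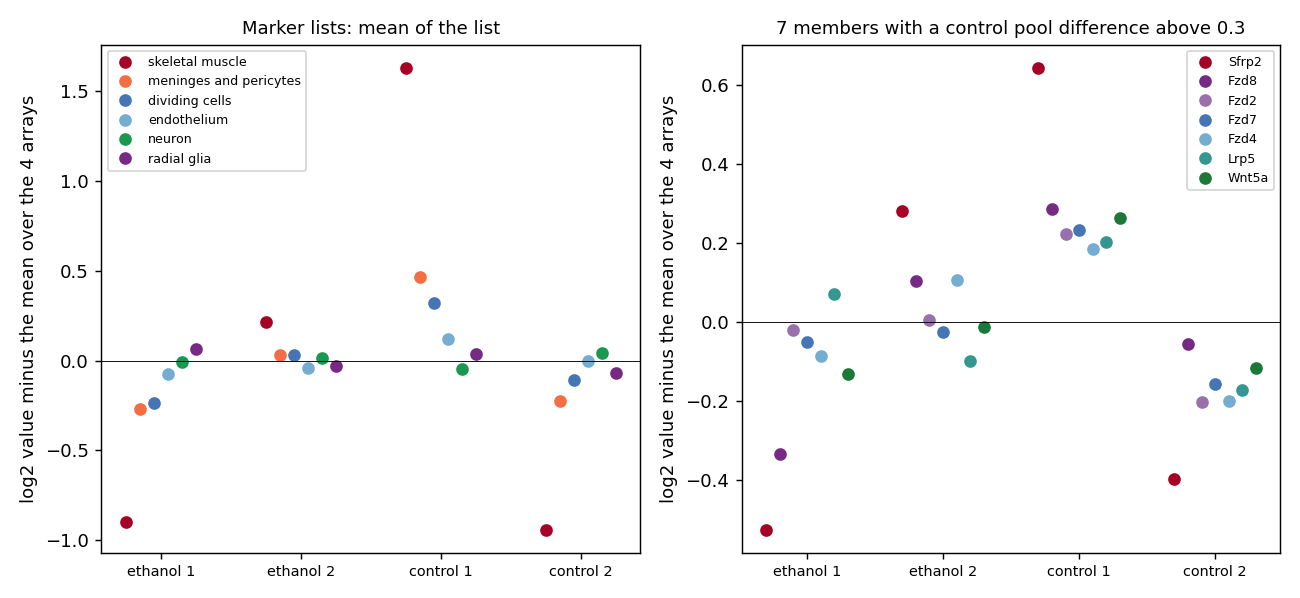
Mean of 6 marker lists (left) and values of the 7 members whose control pools differ by more than 0.3 (right), each as log2 value minus its mean over the 4 arrays (vertical axes), by array. Control 1 is the highest array for all 7 members and for the muscle, meningeal, dividing-cell and endothelial lists, and Sfrp2 is also high on ethanol 2.

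Sfrp1, a relative of Sfrp2 made by cortical progenitors, stood at 10.60, 10.57, 10.68 and 10.47, and Sfrp5 at 6.72, 6.71, 6.81 and 6.63. Both were lowest on control 2 and highest on control 1, by 0.21 and 0.19, and their ethanol values were nearly equal to each other. Sfrp4, a more distant relative, stood at 7.32, 7.22, 7.18 and 7.33. Wif1, which binds WNT proteins directly, stood at 7.71, 7.79, 7.86 and 7.68, again with the extremes on control 1 and control 2.

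Among the Dickkopf proteins, Dkk1, an antagonist at LRP5 and LRP6 and the gene whose start region holds both TCF/LEF matches above, stood at 7.26, 7.13, 7.02 and 7.20. Its difference was 0.088 ± 0.091 (unadjusted p = 0.375), with overlapping groups and the lowest value on control 1. It was 0.00071 without control 1, 0.024 without ethanol 1, 0.15 without ethanol 2 and 0.18 without control 2. Dkk4 stood at 6.68, 6.24, 6.38 and 6.43, with ethanol 1 above ethanol 2 by 0.44, the second largest pool difference of any member, and it was below the lower quartile on 3 of 4 arrays. The difference of Dkk4 between ethanol and control was 0.055 ± 0.15 (unadjusted p = 0.724) and turned to -0.17 without ethanol 1. Dkk2 stood at 7.20, 7.15, 7.18 and 7.10 and Dkk3, a divergent member, at 8.24, 8.16, 8.30 and 8.21, with differences of 0.033 and -0.051.

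The 4 R-spondins had a median difference of 0.018. Rspo3, known from vessel and limb development, stood at 9.19, 9.36, 9.38 and 9.17, with a high and a low pool in each group and a difference of 0.0026. Rspo1 stood at 7.22, 7.33, 7.29 and 7.19 with a difference of 0.033 ± 0.079 (unadjusted p = 0.696). Rspo2 stood at 7.35, 7.31, 7.30 and 7.29, where the ethanol arrays were just above the controls, by 0.037 ± 0.066 (unadjusted p = 0.597). The 4 values of Rspo2 span a narrow range. Rspo4, the R-spondin of nail development, stood at 6.14, 6.09, 6.33 and 6.12, below the lower quartile on all arrays, with control 1 alone higher and a difference of -0.11 ± 0.092 (unadjusted p = 0.279) that was -0.0034 without control 1 and -0.22 without control 2.

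In all 3 intracellular members the groups were apart (31.4% of all genes), 2 higher (17.4%) and 1 lower (14.0%) in ethanol, and their median difference was 0.075. Axin1 (probe set 10442954), the scaffold of the complex that destroys beta-catenin, stood at 9.13, 9.29, 9.46 and 9.42. Both ethanol arrays were lower than both control arrays, and the control arrays lay 0.043 apart. The difference was -0.23 ± 0.081, or 1.17-fold lower in ethanol, with an unadjusted p = 0.033 in limma and an adjusted p = 0.980, so it did not pass. It lay between -0.30 and -0.15 with an array left out.

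Axin2 (probe set 10382228), a paralog of Axin1 and a widely used readout of beta-catenin signalling, stood at 8.89, 8.64, 8.58 and 8.59. Ethanol 1 was the high array and ethanol 2 lay just above the controls, which were nearly equal. The difference was 0.18 ± 0.099 (unadjusted p = 0.128 in limma, adjusted p = 0.980), and 0.051 without ethanol 1 against 0.30 without ethanol 2. Whether Axin2 and Axin1 differ in their response was not tested. Lef1, a TCF/LEF factor and itself a target, stood at 9.32, 9.42, 9.30 and 9.28, with ethanol 2 as the only clearly higher array and a difference of 0.075 ± 0.072 (unadjusted p = 0.343).

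Other genes of the pathway were read from 5 lists with 90 of 91 genes measured. None passed limma's adjusted threshold, and 3 of the 90 (Amer1, Cby1 and Sost) had an unadjusted p under 0.05, against 2.94% of all genes. The ordinary linear model gave 0 adjusted calls, and at an unadjusted p under 0.05 it had Amer1, Znrf3, Celsr2 and Scrib. Letting the variance follow the signal level in limma added Csnk1g1 and Ctnnbip1 to the 3. Which genes reach that p thus depends on the variance model, and shares over all genes under the alternative models were not counted. Of 24 genes of beta-catenin, its destruction complex, Dishevelled and regulators of these, 16 lay below 0 (66.7%, against 45.8% of all genes, median -0.038). In 16 (66.7%) the groups were apart, against 31.4% of all genes. They were higher in 5 (20.8%, against 17.4% of all genes) and lower in 11 (45.8%, against 14.0%). The list was not tested as a set. The largest differences were those of Ctnnbip1, an inhibitor of the binding of beta-catenin to TCF factors, at -0.20 ± 0.087, Cby1, another beta-catenin antagonist, at 0.19 ± 0.072, and Csnk1g1, a casein kinase, at -0.17 ± 0.070. Cby1 stood at 9.17, 9.20, 8.95 and 9.05 and Ctnnbip1 at 10.42, 10.61, 10.74 and 10.70. In both the groups did not overlap, and the inhibitors of beta-catenin thus had opposite signs. Amer1, an APC-binding protein, was the second gene of this list at an unadjusted p under 0.05 in limma without that trend, besides Cby1. It stood at -0.17 ± 0.066 and was named after its value was seen.

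Among 13 of 14 nuclear factors, Tle1, a corepressor, stood higher in ethanol at 0.14 ± 0.081, Tcf7l2, a TCF factor of the thalamus, at 0.13 ± 0.084, and Tle5 at -0.13 ± 0.069 (list median -0.048). Tcf7l2 stood at 12.07, 12.04, 11.83 and 12.01, with control 1 the low array, and the 7 thalamic markers, Tcf7l2 among them, had a mean of 10.11, 10.04, 9.94 and 10.004. Of 20 genes of secretion and cell surface regulation (median -0.0037), 1 passed a fold of 1.2 with an unadjusted p under 0.05. This was Sost, a secreted inhibitor of LRP5 and LRP6 known from bone. It was the only such gene among the 90 measured in the 5 lists, beside 1.02% of all genes. Sost stood at 7.14, 6.88, 6.69 and 6.72, higher on both ethanol arrays, by 0.31 ± 0.10 (unadjusted p = 0.0256 and adjusted p = 0.980 in limma). Wls, the carrier needed for WNT secretion, stood at -0.17 ± 0.12 and Sostdc1, an inhibitor made by the choroid plexus, at -0.16 ± 0.10, while the 8 choroid plexus markers had a mean of 8.49, 8.54, 8.72 and 8.51. Both Wls and Sostdc1 were highest on control 1.

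Of 20 receptors and proteins of the polarity branch, 14 lay below 0 (median -0.029). Ror1, a WNT5A receptor, stood at -0.14 ± 0.11, and the cadherins Celsr2 and Celsr1 at -0.13 ± 0.066 and -0.12 ± 0.080. Of 19 of 20 further target genes of beta-catenin, 10 lay above 0 (52.6%, against 54.2% of all genes) and 9 below, with a median of 0.0025. That median was not stable. It ran from -0.048 to -0.0037 with an array left out and was -0.031 after a second quantile normalization. The largest differences among the targets were those of Bmp4, a growth factor, at -0.22 ± 0.15, the adhesion receptor Cd44 at -0.18 ± 0.16, and Tnfrsf19, a receptor of progenitors, at -0.15 ± 0.070. Bmp4 stood at 8.64, 8.51, 9.02 and 8.57 and Cd44 at 7.11, 7.23, 7.59 and 7.11, both highest on control 1. Some genes of the target list also stand in the surface and cytoplasmic lists.

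**Figure D5:**
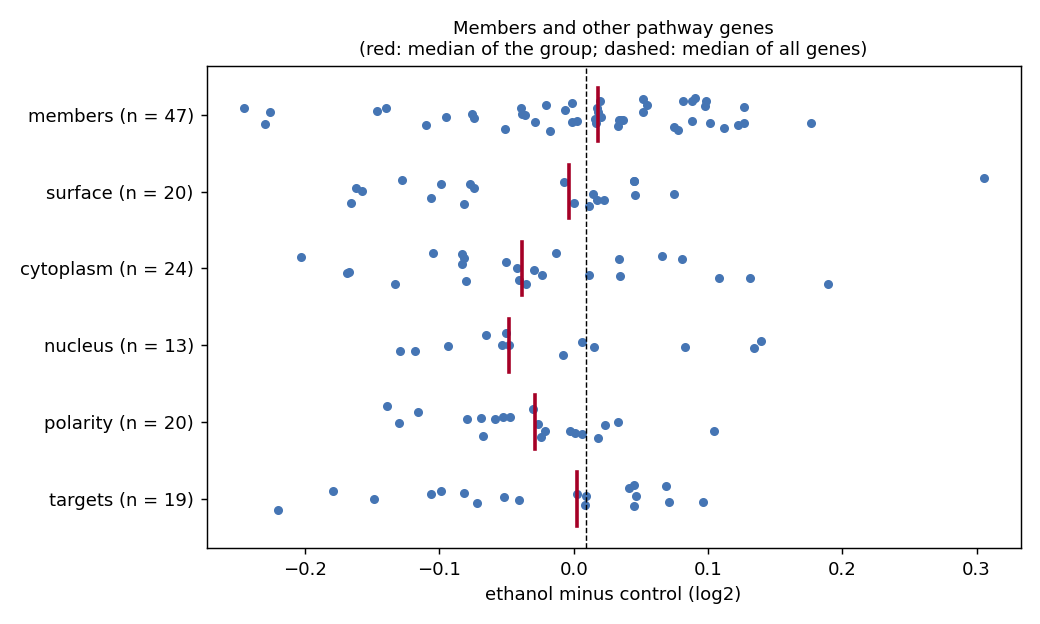
Log2 difference between ethanol and control for each gene (points) of the members and of the 5 other lists, with the median of each group (red line) and of all genes (dashed line). Medians lie between -0.048 and 0.018, and the rightmost point is Sost.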

How the data were processed

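Whole-brain RNA was read on 4 arrays (2 ethanol and 2 control pools). The authors deposited log2 signals for each probe set. That they are log2 was read from their range. Per the submitters' processing notes Partek 6.6 was used. Background correction, normalization and summary remain not given in the sources used here. The number of arrays limits the precision.

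Symbols came from the platform annotation (21789 of 35556 probe sets with 1 symbol, 1621 with several, 12146 with none) and were updated by Entrez identifier (21698 matched), which changed no member. Ethanol and control were compared over 19938 genes with limma 3.58.1 (lmFit, eBayes) in R 4.3.3, two-sided, with Benjamini-Hochberg adjustment over all genes. The fit has 2 residual degrees of freedom, to which eBayes adds 3.65 prior degrees from the spread over all genes (5.65 in total). A run on simulated arrays required only that mean estimates lay near the changes put in, which does not bear on power or false calls. Members and lists were chosen with earlier results of these data known, so no list was tested.

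Every member is given by array. Difference, SE and p are given for the 3 largest in each role, those at an unadjusted p under 0.05, the 5 with the largest pool differences, and the 3 largest of each pathway list. Further differences are given without SE. Alternatives were scaling, filters, variance models, the replicate block and each array left out.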

Additional observations from a re-analysis of the deposited data

How the results depend on the processing

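Under all alternatives run, 0 members and 0 genes of the 5 lists passed the adjusted threshold. With an array left out, 0 to 4 members passed a fold of 1.2 at an unadjusted p under 0.05 (4 without ethanol 2: Fzd8, Dkk4, Axin1 and Axin2; 3 without control 2: Wnt5a, Fzd7 and Sfrp2), and 25 to 37 had groups apart, since fewer arrays overlap less. For the fits with an array left out, shares over all genes were not counted, so their member and list counts have no background. Groups were apart in 7 members among genes above the median level, where fewer members enter. The share over all genes above that level was not counted either, so this 7 has no background. Median differences with an array left out were -0.022 to 0.15 for ligands, -0.16 to 0.11 for receptors, -0.090 to 0.067 for secreted inhibitors, -0.061 to 0.065 for R-spondins, 0.022 to 0.084 for intracellular members, -0.0081 to 0.055 for all members, -0.057 to 0.041 for the surface, -0.040 to -0.023 for the cytoplasmic, -0.025 to -0.014 for the nuclear, -0.068 to -0.014 for the polarity and -0.048 to -0.0037 for the target list. Genes at that p and fold then numbered 0 to 2 (cytoplasmic), 0 to 1 (nuclear and polarity), 0 to 5 (surface) and 0 to 3 (target list). The 1 surface gene, Sost, was too dim to enter among genes above the median. Sost also missed that p and fold without ethanol 1, without control 1 and in the ordinary linear model (0 surface genes in each).

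Among genes above the median the medians were -0.034 (members), -0.027 (ligands), -0.051 (inhibitors), -0.076 (surface) and -0.046 (targets, also above the lower quartile). A second quantile normalization gave 0.11 (intracellular), -0.023 (nuclear), -0.031 (targets) and 0.0086 for Fzd2. The split of all members moved from 28 above and 19 below 0 to 24 and 23. Equal array medians gave 0.091 (intracellular), -0.021 (cytoplasmic), -0.031 (nuclear) and 0.020 (targets), with 31 members above and 16 below 0. The cause was not tested.

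Ethanol 1 against control 2 alone, chosen after the data were seen, leaves 1 array per group and no test. It gave 0.085 (members), 0.11 (receptors), 0.031 (intracellular), -0.029 (nuclear), 0.060 (surface) and 0.020 (targets), and 0.18 for Fzd2, 0.11 for Fzd7 and 0.023 for Rspo4. With an array left out, signs turned in 27 of the 47 members. Of the 17 given with SE these were Wnt5a (-0.34 to 0.044), Fzd2 (-0.23 to 0.19), Fzd7 (-0.27 to 0.12), Dkk4 (-0.17 to 0.28), Sfrp2 (-0.77 to 0.27) and Rspo1 (-0.025 to 0.090). Of those that kept their sign, values ran over 0.084 to 0.17 (Wnt7b), 0.079 to 0.17 (Wnt8b), 0.060 to 0.16 (Fzd5), 0.020 to 0.053 (Rspo2) and 0.022 to 0.13 (Lef1).

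No label ties arrays of like number, and their deviations from the group means had a correlation of -0.484 across genes. With the replicate number as a block, 0 members were called, 0 passed the fold and unadjusted p, and the member median stayed at 0.018. A crossed pairing, added after the data were seen, called 0 members and 0 list genes.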
